A study of Mus musculus with 51 samples.

Results

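The comparison described here is the tissue contrast within matDKO/CAST embryos, extraembryonic ectoderm (ExE) against epiblast (Epi), for H3K4me3, H3K27me3 and H3K36me3. Its members were chosen by their labels alone and are 12 ChIP libraries of the 51 samples in the series, 2 of each tissue for each mark. The embryos were collected at E6.5 from natural timed matings, the 2 tissues were separated by hand, and each library was made by ultra-low-input native ChIP from pooled embryos. The matDKO mothers carried floxed Dnmt3a and Dnmt3b and the Zp3-cre transgene, whose promoter is active in growing oocytes, on a mixed B6 and 129 background, and were mated to CAST males. Their embryos inherited a null maternal allele of both genes and no DNA methylation from the oocyte, but kept the paternal alleles and could methylate DNA after fertilization. The wild-type groups were B6/CAST and CAST/B6 (mother named first), each with 12 libraries of the same layout. The 129 part of the mothers' genome was found in matDKO/CAST only, so it cannot be told apart from the deletion. No source used here says that pools came from separate litters, so p-values measure the spread between libraries, which may be technical.

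H3K4me3 marks the promoters of active genes and of genes held ready for activation. H3K27me3 is laid down by Polycomb repressive complex 2 over silent developmental genes, and H3K36me3 is laid down by SETD2 along the bodies of transcribed genes. At imprinted genes, methylation inherited from the oocyte normally silences one promoter on the maternal chromosome. In the Kcnq1ot1 and Airn clusters that promoter makes a long noncoding RNA from the paternal chromosome, and in extraembryonic tissue this RNA silences genes over a long distance on the same chromosome. An embryo without oocyte methylation can make the RNA from both chromosomes. ExE is the trophoblast part of the egg cylinder and later contributes to the placenta, whereas the epiblast gives rise to the fetus.

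Signal was read as the mean RPKM (reads scaled to the length of the window and to the reads of the library) of the windows inside each peak, over the union of the wild-type peak lists on the 19 autosomes. The unions held 45602 peaks for H3K4me3, 23395 for H3K27me3 and 24202 for H3K36me3, with median lengths of 3000, 10500 and 7500 bp. Differences are given as log2 of RPKM plus 0.5, ExE minus epiblast, with SE, and a peak was called at an adjusted p (limma, Benjamini-Hochberg over all peaks of the mark, two-sided) below 0.05. The departure is the matDKO/CAST tissue difference minus the mean tissue difference of the wild-type crosses. The matDKO/CAST libraries held from 2.09 to 13.2 M reads and the wild-type ChIP libraries from 4.46 to 22.9 M reads. Replicates of matDKO/CAST correlated across peaks at r of 0.963 (Epi) and 0.957 (ExE) for H3K4me3, 0.765 and 0.841 for H3K27me3, and 0.555 and 0.796 for H3K36me3. In bulk tissue, fewer cells of a type and less signal per cell cannot be told apart. The start sites of Dnmt3a (13 and 11.2 RPKM in epiblast, 8.98 and 11 in ExE) and Dnmt3b (9.34 and 7.08, 5.09 and 6.51) carried H3K4me3 in every matDKO/CAST library. These peaks do not check the deletion, since the sources used here do not give the deleted exons, but the maternal shares below follow the label.

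The promoters on which the departures below turned are shown first, with the promoters of the 2 silencing RNAs of their clusters. Ascl2, Phlda2 and Slc22a3 are the annotated start sites at which the tissue difference of matDKO/CAST departed from wild type through low ExE values. Each sequence runs 5′ to 3′ on the strand of the gene, from 250 bases before to 50 bases after the RefSeq start (GRCm38.p6), with CG dinucleotides in capitals.
Ascl2, chr7:142969215-142969514, minus strand: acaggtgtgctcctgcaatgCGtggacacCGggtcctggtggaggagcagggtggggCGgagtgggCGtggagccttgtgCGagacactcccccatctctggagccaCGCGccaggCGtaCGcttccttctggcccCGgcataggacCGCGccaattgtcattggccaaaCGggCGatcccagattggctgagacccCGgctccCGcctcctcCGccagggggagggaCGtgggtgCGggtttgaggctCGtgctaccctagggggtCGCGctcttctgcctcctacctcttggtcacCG
Phlda2, chr7:143502475-143502774, minus strand: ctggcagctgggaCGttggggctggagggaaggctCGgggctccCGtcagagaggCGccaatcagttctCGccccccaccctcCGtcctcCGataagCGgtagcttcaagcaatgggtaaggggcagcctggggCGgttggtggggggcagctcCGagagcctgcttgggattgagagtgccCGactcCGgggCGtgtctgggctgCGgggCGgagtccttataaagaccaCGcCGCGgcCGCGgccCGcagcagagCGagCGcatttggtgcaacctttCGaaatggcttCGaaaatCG
Slc22a3, chr17:12507655-12507954, minus strand: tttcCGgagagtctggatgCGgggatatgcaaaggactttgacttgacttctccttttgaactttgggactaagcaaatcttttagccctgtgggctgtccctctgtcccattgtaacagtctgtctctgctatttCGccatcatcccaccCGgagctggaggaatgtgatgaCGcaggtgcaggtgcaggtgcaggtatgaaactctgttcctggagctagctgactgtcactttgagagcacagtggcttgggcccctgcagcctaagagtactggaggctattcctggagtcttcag
Kcnq1ot1, chr7:143296498-143296797, minus strand: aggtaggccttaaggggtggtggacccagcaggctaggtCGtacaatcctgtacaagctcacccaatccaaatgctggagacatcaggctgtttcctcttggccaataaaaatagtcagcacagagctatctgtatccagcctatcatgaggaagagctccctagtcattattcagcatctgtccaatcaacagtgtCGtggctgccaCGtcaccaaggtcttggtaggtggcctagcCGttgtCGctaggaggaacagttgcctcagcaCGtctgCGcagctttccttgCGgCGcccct
Airn, chr17:12741061-12741360, plus strand: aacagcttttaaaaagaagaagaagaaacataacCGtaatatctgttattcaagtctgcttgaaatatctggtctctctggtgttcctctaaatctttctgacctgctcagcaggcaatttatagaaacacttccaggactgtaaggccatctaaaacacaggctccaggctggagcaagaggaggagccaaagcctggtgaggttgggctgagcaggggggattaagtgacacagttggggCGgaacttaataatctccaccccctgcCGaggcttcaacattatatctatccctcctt
The windows of Ascl2 and Phlda2 held 23 and 26 CG dinucleotides, a number reached by 21.52% and 16.87% of the 32851 promoters in the table, whose median was 7. Slc22a3 held 5, which 61.96% of promoters reached. Kcnq1ot1 held 9 and Airn 3, reached by 45.78% and 76.69%. The letters TGCCGC were searched on both strands and occurred in none of the 5 windows and in 11.61% of all promoters. These counts describe the letters in the windows only.

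H3K4me3 in matDKO/CAST differed between ExE and epiblast at 12932 peaks. It was higher in ExE at 5061 peaks (11.1% of those tested) and lower at 7871 (17.3%). In the mean of the wild-type crosses, which rests on 8 libraries and so has more power, 13127 peaks were higher (28.8%) and 8613 lower (18.9%). Each wild-type cross alone, with the same 4 libraries as matDKO/CAST, gave 10167 higher and 5740 lower in B6/CAST and 2994 and 3806 in CAST/B6, so the matDKO/CAST total lay between those of the 2 crosses. Of the matDKO/CAST calls, 88.82% of the higher and 78.21% of the lower peaks were also called in the same direction in wild type, and 12 peaks were called in opposite directions, all of them lower in matDKO/CAST ExE. The differences of matDKO/CAST and wild type correlated across peaks at r = 0.870. Against single crosses of 4 libraries r was 0.873 with B6/CAST and 0.795 with CAST/B6, and the 2 crosses gave 0.853 with each other. These correlations are across peaks, which are not independent replicates, and the crosses share no library.

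Peaks over start sites were called higher less often than other peaks, with 4.995% higher and 15.965% lower, and 16.533% of peaks in gene bodies were higher. The plot of tissue differences of matDKO/CAST against wild type shows the 3 marks side by side.

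**Figure D1:**
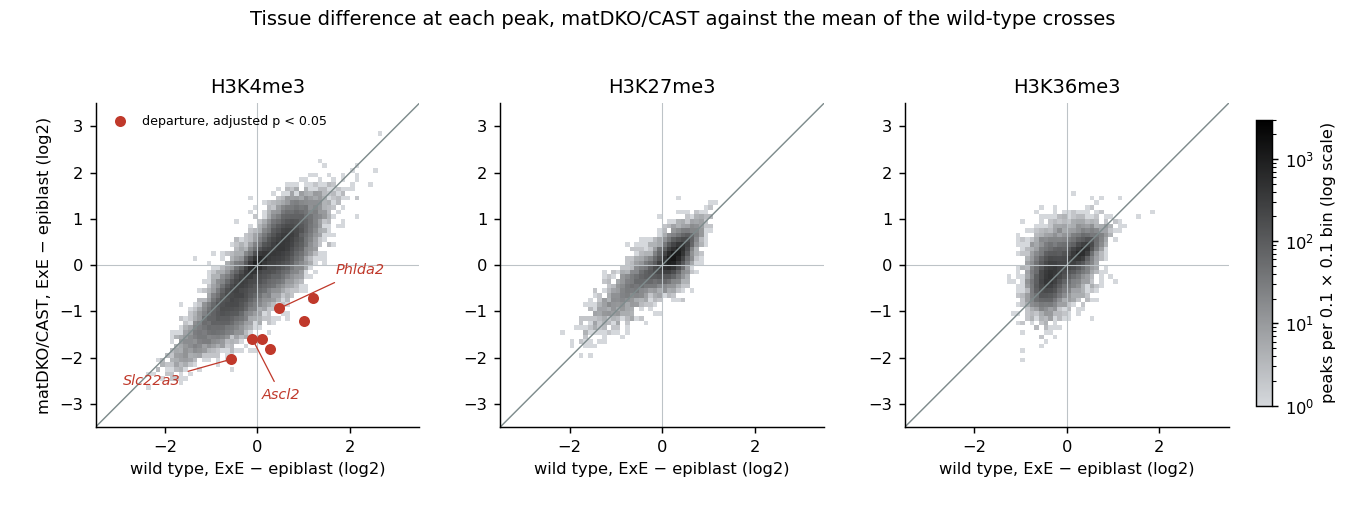
Tissue difference (ExE minus epiblast, log2 of RPKM plus 0.5) in matDKO/CAST on the vertical axis against the mean of the wild-type crosses on the horizontal axis, one panel per mark, with grey shading for the number of peaks in each 0.1 by 0.1 bin (log scale), the diagonal for equal differences and red points for the 7 H3K4me3 departures. The correlation across peaks is 0.870 for H3K4me3, 0.788 for H3K27me3 and 0.651 for H3K36me3.

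The largest H3K4me3 differences of matDKO/CAST had the same sign in wild type. Sall2, a zinc finger transcription factor gene, had 10.7 and 10.0 RPKM in the epiblast libraries and 0.894 and 1.73 RPKM in the ExE libraries, a difference of -2.63 (SE 0.23, adjusted p = 6.4e-10 by limma) beside -2.39 in wild type. Stmn2, a gene for a neuronal microtubule regulator, had 9.01 and 9.38 RPKM against 1.12 and 1.38, a difference of -2.47 beside -1.72. Both genes were several times lower in each ExE library than in each epiblast library. Smug1 (-2.51), Gm39653 (-2.49) and Rbfox1 (-2.45) completed the 5 strongest in that direction, with wild-type differences of -1.63, -1.79 and -2.03. In the other direction, Gm49531 had 0.914 and 0.437 RPKM in epiblast and 6.19 and 9.23 in ExE, a difference of 2.81 (SE 0.25) beside 2.67 in wild type. Slc7a1, which encodes a cationic amino acid transporter, had 0.693 and 0.665 RPKM against 3.42 and 6.84 at chr5:148370001-148373000 (2.19 beside 2.15). A peak inside Kdm2b, a gene for an H3K36 demethylase and Polycomb-recruiting protein, had 0.914 and 0.333 RPKM against 4.25 and 4.08 at chr5:122967001-122969500 (2.10 beside 1.42). Gm14409 (2.21 beside 1.35) and Gm26806 (2.05 beside 2.55) were the remaining 2. All 10 of these calls held in every setting tried.

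H3K4me3 at genes of the epiblast and of pluripotency was lower in ExE in matDKO/CAST as in wild type. Of the 15 genes, 10 were lower and 0 higher, with a median of -0.96 beside -0.86 in wild type, where the median over all peaks was 0.02 and 0.08. Over all start-site peaks of matDKO/CAST 15.965% were lower and 4.995% higher. Pou5f1, the pluripotency factor OCT4, had 16.7 and 13.2 RPKM in epiblast and 1.28 and 4.33 in ExE, a difference of -2.39 (adjusted p = 1.1e-07 by limma) beside -2.25 in wild type. Otx2, an epiblast and anterior neural factor, had 14.9 and 10.2 RPKM against 1.97 and 3.32 (-2.06 beside -2.05). Fgf4, the epiblast ligand that maintains trophoblast stem cells, had 12.1 and 8.94 RPKM against 1.67 and 3.30 (-1.92 beside -1.61). In these 3 genes every ExE library lay below every epiblast library. Foxd3 (-1.67), Fgf5 (-1.23), Tdgf1 (-1.12), Sox2 (-1.0), Nodal (-0.96), Nanog (-0.87) and Zic2 (-0.72) were the other called members. Utf1 (-0.13), Pou3f1 (-0.32), Lin28a, Gdf3 and L1td1 were not called. The summed level of the list was 106 to 144 RPKM in the epiblast libraries and 50.6 to 71.2 RPKM in the ExE libraries.

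Of 18 genes of ExE and trophoblast stem cells, 3 were higher and 1 lower, with a median of 0.22 beside 0.44 in wild type, where 10 were higher and 1 lower in a test with more libraries. Over all start-site peaks of matDKO/CAST 4.995% were higher and 15.965% lower. Elf5, a trophoblast transcription factor normally methylated in the embryonic lineage, had 0.641 and 0.689 RPKM in epiblast and 2.39 and 3.44 in ExE, a difference of 1.53 (SE 0.25, adjusted p = 1.2e-05 by limma). In wild type the same peak had 0.256 to 0.847 RPKM in epiblast and 2.52 to 3.81 in ExE (1.86), so that the matDKO/CAST values overlapped those of wild type in both tissues. Plet1, a surface protein of ExE, had 1.98 and 2.94 RPKM against 4.90 and 4.31 (0.80 beside 1.18), and Tfap2c was higher by 0.62 (beside 0.97). Cdx2, the trophectoderm factor, had 5.75 and 4.12 RPKM against 6.51 and 7.37, which was not called (0.47, adjusted p = 0.12 by limma) beside 0.88 in wild type. Esrrb, a nuclear receptor used by both pluripotent and trophoblast stem cells, was lower in ExE in both (-0.77 and -0.77). The count depended on scaling, with 11 higher and 3 lower after quantile normalization and 8 and 1 by edgeR, and no departure was called at any member. Of the 11 genes of the ectoplacental cone and placenta, 7 had a peak and 1 was called, Ascl2, which was lower. The summed level of the ExE list was 99.1 to 125 RPKM in epiblast and 113 to 141 in ExE.

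The other lists gave the following H3K4me3 counts, to be read beside 4.995% higher and 15.965% lower over all start-site peaks of matDKO/CAST. Of 14 visceral endoderm genes, 4 were higher in ExE, namely Cubn (1.09), Hnf4a (0.95), Amn (0.68) and Apoa1 (0.63), with a list median of 0.28 beside 0.43 in wild type. After quantile normalization 8 were higher and 1 lower, after centring 2 were higher and by edgeR 6. The visceral endoderm covers both tissues, and the summed level of its markers was 49.3 to 71.2 RPKM in matDKO/CAST epiblast and 64.0 to 74.3 RPKM in ExE, and its part in the tissue differences was not tested. Of 7 decidua and blood genes, 2 had a peak (Pgr and Hand2) and both were lower in ExE (-0.81 and -1.06), while the globin genes, Ptprc and Prl8a2 had none. Their summed level was 17.5 to 23.8 RPKM in epiblast and 10.3 to 11.3 RPKM in ExE. Of 11 primitive streak and mesoderm genes, 6 were lower and 0 higher (median -0.76 beside -0.59), among them Wnt3a (-1.68), Gsc (-1.44), Fgf8 (-0.95), Wnt3 (-0.90) and Evx1 (-0.76). T, the brachyury gene of the streak, had 7.14 and 5.16 RPKM in epiblast and 1.45 and 2.63 in ExE, a difference of -1.41 beside -0.59. The departure at T was not called (-0.82, adjusted p = 0.775 by limma), although matDKO/CAST ExE was below wild-type ExE by itself (-1.07, adjusted p = 0.012 by limma). Of 12 germline genes with a peak, whose promoters are normally silenced by DNA methylation, Stk31 (1.01), Mov10l1 (1.05) and Sycp1 (0.85) were higher, where edgeR called 1. Of 16 genes of DNA methylation and chromatin modifiers, 1 was called, Dnmt3l, the cofactor of the de novo methyltransferases, with 1.51 and 1.27 RPKM against 2.48 and 3.15 (0.81 beside 1.06). The 39 Hox genes shared 7 peaks, of which 3 were lower and 0 higher (median -0.58 beside -0.29). Of these peaks edgeR called 6 lower, and limma 2 after quantile normalization and 1 after centring.

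**Figure D2:**
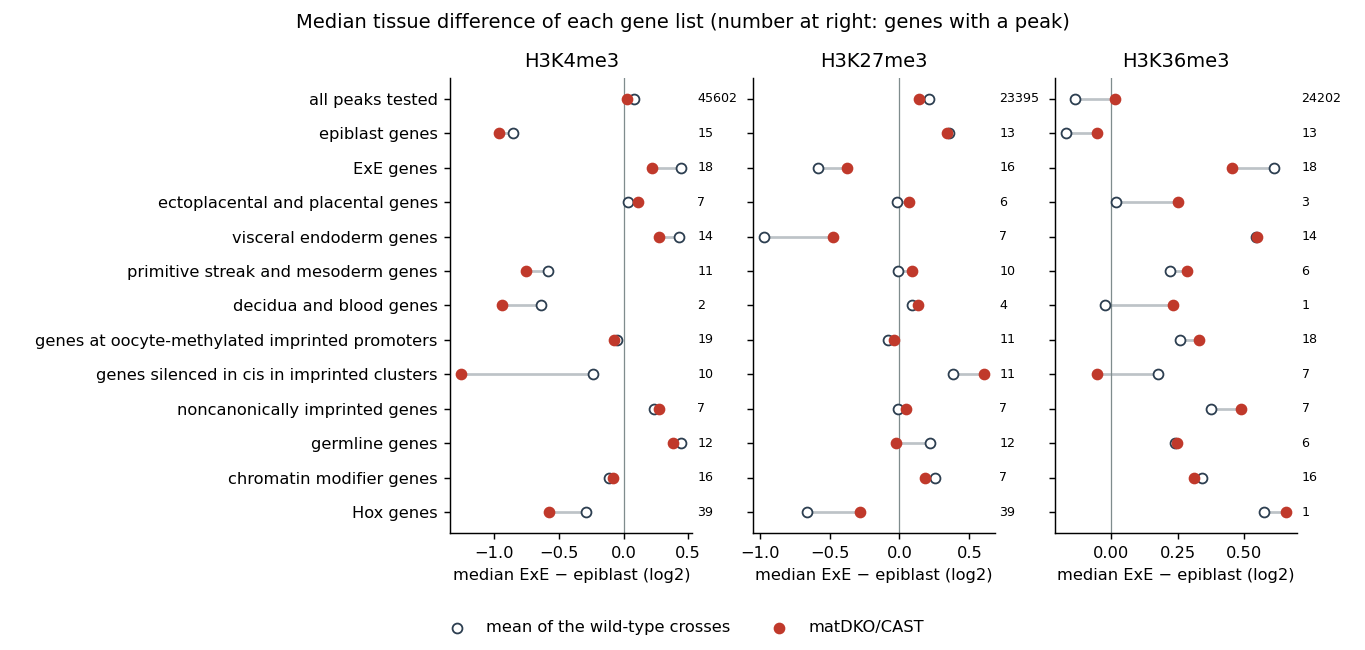
Median tissue difference (ExE minus epiblast, log2 of RPKM plus 0.5) of each gene list in matDKO/CAST and in the mean of the wild-type crosses, one panel per mark, with the number of genes that have a peak at the right. The list of genes silenced in cis is the one whose H3K4me3 medians stand farthest apart, at -1.26 in matDKO/CAST and -0.24 in wild type.

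H3K4me3 departed from wild type at 7 peaks, all with a more negative difference in matDKO/CAST (0.0154% of peaks by limma, 0 in the other direction). After centring each library on its median 5 were called, 3 of them lower and 2 higher. By an unadjusted p below 0.05 there were 2489 (5.46%), of which 2260 (4.96%) were lower. This tilt depended on scaling, since the median departure over all peaks was -0.08 as deposited, 0.00 after quantile normalization, 0.09 after centring each library on its median and -0.13 by edgeR. By edgeR on recovered reads 14 peaks were lower (0.0307%), 5 of them among the 7. The same test between B6/CAST and CAST/B6 called 0 H3K4me3 peaks, with 1384 at an unadjusted p below 0.05. Of the 7, 4 lay over the start sites of Ascl2, Phlda2, Slc22a3 and Gm9111, and 3 were intergenic.

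Ascl2, a basic helix-loop-helix factor of the trophoblast that maps to the Kcnq1ot1 cluster, had similar H3K4me3 in ExE and epiblast of wild type, whereas it was depleted in ExE of matDKO/CAST. At chr7:142965501-142970500, which covers the promoter shown above, the matDKO/CAST libraries had 5.18 and 3.54 RPKM in epiblast and 0.949 and 1.23 RPKM in ExE. B6/CAST had 5.75 and 5.32 RPKM in epiblast and 5.38 and 4.01 in ExE, and CAST/B6 had 3.44 and 4.00 against 3.89 and 3.62. Both matDKO/CAST ExE libraries were thus below all 10 other libraries, and the epiblast libraries lay among those of wild type. The tissue difference was -1.60 (SE 0.22, adjusted p = 8.8e-07 by limma) in matDKO/CAST and -0.11 in wild type, a departure of -1.49 (SE 0.27, adjusted p = 0.021 by limma, 7.5e-06 by edgeR). Within ExE, matDKO/CAST was below wild type by 1.57 on the log2 scale (adjusted p = 7.2e-07 by limma), whereas epiblast gave -0.07 (adjusted p = 0.89).

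Phlda2, a pleckstrin homology gene that restrains placental growth, is on the other side of Kcnq1ot1. At chr7:143499501-143507500 the matDKO/CAST libraries had 2.79 and 2.47 RPKM in epiblast and 1.00 and 1.28 in ExE. B6/CAST had 4.17 and 3.58 RPKM against 5.01 and 4.15, and CAST/B6 had 3.33 and 2.07 against 4.11 and 5.37. Phlda2 was therefore among the 12 peaks called in opposite directions, lower in matDKO/CAST ExE (-0.93, SE 0.22, adjusted p = 0.0018 by limma) and higher in wild-type ExE (0.47, adjusted p = 0.014). The departure was -1.41 (SE 0.27, adjusted p = 0.0499 by limma, 1.5e-05 by edgeR). Within ExE, matDKO/CAST was lower by 1.65 on the log2 scale (adjusted p = 4e-07 by limma), and within epiblast the difference was -0.24 (adjusted p = 0.58 by limma).

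Slc22a3, an organic cation transporter gene in the Airn cluster, already had less H3K4me3 in ExE in wild type. At chr17:12506001-12510000 the matDKO/CAST libraries had 5.28 and 4.80 RPKM in epiblast and 0.664 and 1.07 in ExE. B6/CAST had 5.13 and 5.49 RPKM against 2.94 and 3.19, and CAST/B6 had 3.36 and 2.19 against 1.67 and 2.08. The direction was the same in the 3 crosses, and the ExE libraries of matDKO/CAST lay below all others. The difference was -2.03 (SE 0.22, adjusted p = 1.9e-08 by limma) beside -0.57 in wild type, a departure of -1.46 (SE 0.27, adjusted p = 0.0285 by limma, 0.0037 by edgeR). Within ExE the difference from wild type was -1.10 (adjusted p = 0.0012 by limma), and within epiblast 0.36 (adjusted p = 0.35).

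**Figure D3:**
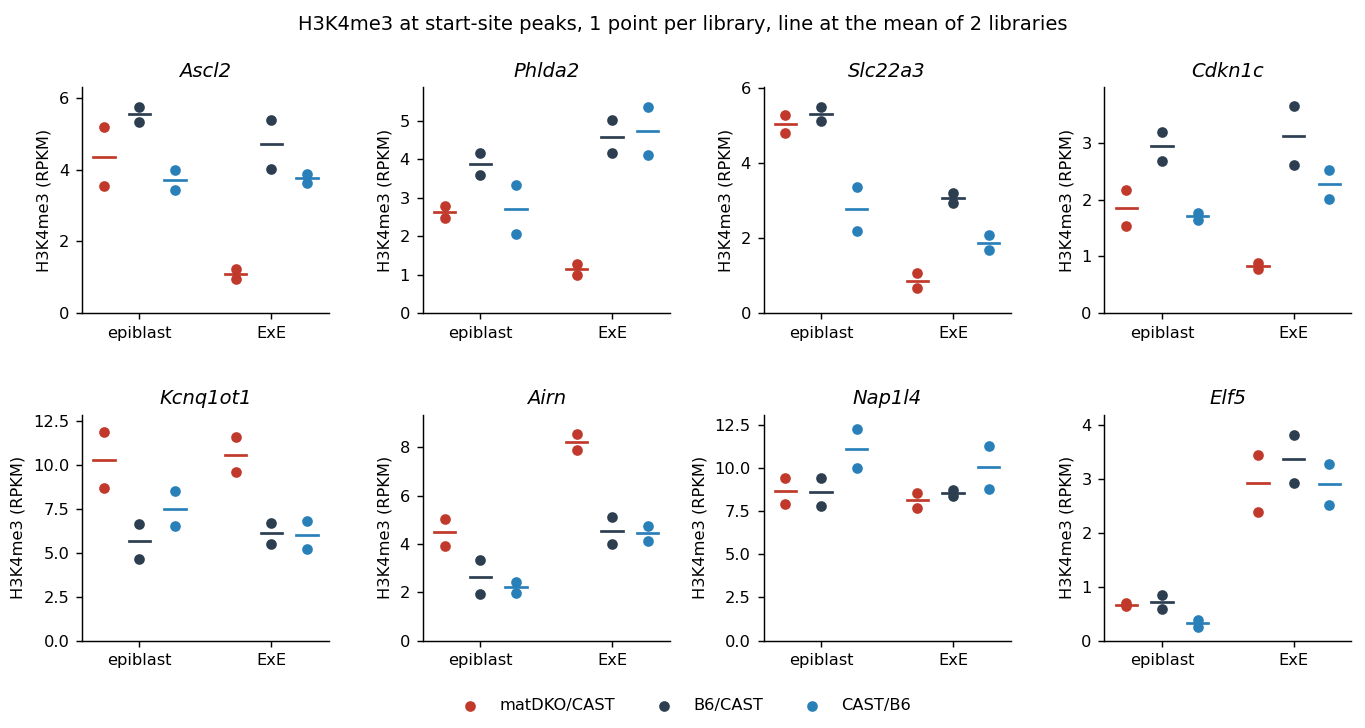
H3K4me3 (RPKM, mean over the peak) in each library at 8 start-site peaks, by cross and tissue, with one point per library and a line at the mean of 2. At Ascl2, Phlda2 and Slc22a3 the 2 matDKO/CAST ExE libraries lie below all other libraries, between 0.664 and 1.28 RPKM, whereas at Elf5 they lie with the wild-type ExE libraries.

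The other 4 departures did not lie near these clusters, and at 3 of them matDKO/CAST epiblast was called above wild type by limma. Gm9111, at chr10:126809001-126811000, had 5.99 and 4.99 RPKM in matDKO/CAST epiblast and 1.67 and 1.30 in ExE, where the 8 wild-type libraries had 0.719 to 1.64 RPKM. Its matDKO/CAST epiblast was above wild type by 2.05 on the log2 scale (adjusted p = 1.5e-08 by limma), its departure was -1.69 (SE 0.30, adjusted p = 0.0187 by limma), and edgeR did not call it (adjusted p = 0.30). The intergenic peaks at chr13:82335001-82337000 and chr6:131856001-131858000 had 1.25 and 1.50 RPKM, and 1.41 and 1.25 RPKM, in matDKO/CAST epiblast. Wild-type epiblast had 0 to 0.409 RPKM at both, so that the tissue difference was of opposite sign, -1.21 beside 1.01 at the former and -0.72 beside 1.19 at the latter. These departures were -2.23 (SE 0.35, adjusted p = 0.0068 by limma, 0.011 by edgeR) and -1.91 (SE 0.32, adjusted p = 0.0127 by limma, 0.0099 by edgeR). At the former both matDKO/CAST ExE libraries (0.38 and 0.237 RPKM) were also below those of wild type (0.547 to 1.41 RPKM). The intergenic peak at chr13:76345001-76347000 had 3.08 and 2.62 RPKM in matDKO/CAST epiblast and 1.14 and 0.059 in ExE, a departure of -2.08 (SE 0.39, adjusted p = 0.0285 by limma, 0.23 by edgeR). Both epiblast libraries were above those of wild type, which had 0.721 to 1.68 RPKM, but this was not called (adjusted p = 0.063 by limma). Its 2 ExE libraries were far apart, with wild-type ExE at 1.21 to 2.36 RPKM, and without ExE replicate 3 the departure was -1.31 and was not called.

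Each of the 7 departures depended on some setting. Of 20 or 21 alternatives each, chr13:82335001 stayed called in 18, chr6:131856001 in 16, Ascl2 in 12, Gm9111 and chr13:76345001 in 10, Slc22a3 in 9 and Phlda2 in 6, and none changed sign. Leaving out matDKO/CAST ExE replicate 2 ended the calls at Ascl2, Slc22a3 and Phlda2, with departures of -1.37, -1.25 and -1.28, and leaving out matDKO/CAST epiblast replicate 1 gave -1.24, -1.40 and -1.33. Centring each library on its median ended the same 3 calls (-1.32, -1.29 and -1.24, adjusted p = 0.43, 0.48 and 0.55 by limma), and so did taking B6/CAST alone or CAST/B6 alone as wild type. Against B6/CAST alone 1 peak was called in all and against CAST/B6 alone 0, and the range that follows is for fits with 1 library left out. The number called ranged from 1 without B6/CAST ExE replicate 1 to 54 without CAST/B6 epiblast replicate 3, and among matDKO/CAST libraries from 3 without epiblast replicate 2 to 42 without epiblast replicate 1.

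Start sites around Kcnq1ot1 were examined as a group, since 2 of the departures lay there. Those 2, Ascl2 and Phlda2, are among the peaks counted, so the group counts are not independent of that choice. Within 1 Mb of Kcnq1ot1 there were 30 start-site peaks, of which 17 were called lower in ExE in matDKO/CAST and 7 in wild type, and the median difference was -0.75 beside -0.11. Over all 17238 start-site peaks 2752 (15.965%) were lower in ExE in matDKO/CAST. The median departure was -0.45, against 0.00 over all 17238 start-site peaks and -0.08 over all peaks. It was negative at 25 of the 30, where 8599 of the 17238 start-site peaks and 28390 of all 45602 peaks were negative. It was called by limma at 2 and by edgeR at 7, and reached an unadjusted p below 0.05 at 12. Limma called 4 departures over all 17238 start-site peaks. Over all 45602 peaks 5.46% reached an unadjusted p below 0.05 and edgeR called 0.0307%. Kcnq1, a potassium channel gene on the same side of Kcnq1ot1 as Ascl2, had 4.26 and 3.74 RPKM in matDKO/CAST epiblast and 0.949 and 1.04 in ExE (-1.59 beside -0.34 in wild type). The peak shared by Tssc4 and Cd81 at chr7:143067001-143071500 had 10.5 and 8.24 RPKM against 3.68 and 3.54 (-1.26 beside -0.24). In both, the 2 ExE libraries were far below the wild-type ExE libraries, which had 2.11 to 4.15 RPKM at Kcnq1 and 8.81 to 11.0 RPKM at Tssc4. A further Cd81 peak at chr7:143051501-143059000 had 8.38 and 6.21 RPKM against 2.28 and 1.94 (-1.57 beside -0.48). Cdkn1c, the cyclin-dependent kinase inhibitor p57, had 1.53 and 2.17 RPKM against 0.777 and 0.886 (-0.81 beside 0.19), and Slc22a18 gave -0.61 beside 0.39. At these 5 peaks matDKO/CAST was below wild type within ExE, by 1.26, 1.33, 1.57, 1.24 and 1.03 on the log2 scale, and their departures were called by edgeR (adjusted p = 0.013, 0.0048, 0.0008, 0.0043 and 0.0082) but not by limma on the values as deposited. After quantile normalization limma called Kcnq1, Tssc4 and the further Cd81 peak (adjusted p = 0.043, 0.0052 and 0.0052), and among peaks of at least 1 RPKM it called Kcnq1 (adjusted p = 0.0095).

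Departures near 0 were also found in the region. Nap1l4, which lies beyond Phlda2, gave -0.01, Cars 0.00, and H19, far out on the other side, -0.01. Igf2, the growth factor gene next to H19, gave -0.27 without passing the test. Kcnq1ot1 itself had 11.9 and 8.70 RPKM in matDKO/CAST epiblast and 9.61 and 11.6 in ExE, with a departure of 0.14. Around Airn, 11 of 16 start-site peaks had a negative departure and 1 was called (Slc22a3), with a median of -0.08 beside 0.00 over all start-site peaks. Igf2r, the receptor gene that overlaps Airn, had 3.59 and 2.37 RPKM in epiblast and 2.24 and 2.99 in ExE, beside 5.93 to 8.08 RPKM in wild-type ExE. It was lower than wild type within ExE (-1.25, adjusted p = 0.00074 by limma), whereas its departure (-0.56) was not called, since epiblast gave -0.69 (adjusted p = 0.053).

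**Figure D4:**
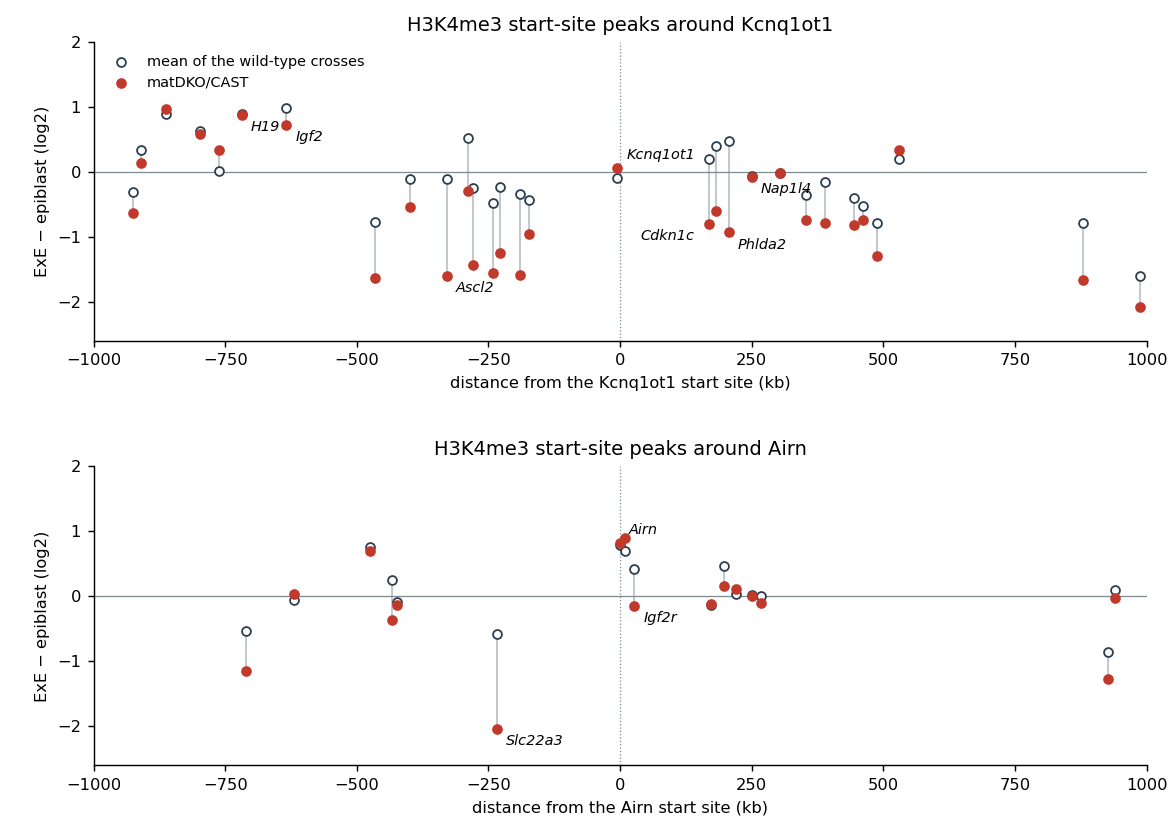
H3K4me3 tissue difference (ExE minus epiblast, log2 of RPKM plus 0.5) at start-site peaks against distance in kb from the start of Kcnq1ot1 (top) and of Airn (bottom), to 1 Mb on each side, with filled points for matDKO/CAST, open points for the mean of the wild-type crosses and a line joining them, whose length is the departure. Around Kcnq1ot1 the points of H19 and Nap1l4 coincide whereas those of Ascl2 (-1.60 and -0.11) and Phlda2 (-0.93 and 0.47) lie apart, and around Airn the widest gap is at Slc22a3 (-2.03 and -0.57).

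As a list, the genes silenced in cis in imprinted clusters had 10 of 11 members with a peak, on 9 distinct peaks. Of these, 7 were lower in ExE in matDKO/CAST and 0 higher, beside 2 lower and 2 higher in wild type, with a median of -1.26 beside -0.24 and a median departure of -1.02. It was -1.21 and -1.22 in matDKO/CAST after quantile normalization and centring. Of the 9 peaks, 8 reached an unadjusted p below 0.05 for the departure, 6 were called by edgeR and 2 by limma. Over all 17238 start-site peaks of matDKO/CAST 15.965% were lower in ExE and limma called 4 departures. Tspan32 (-1.44 beside -0.25) and Pde10a (-1.38 beside -0.72) were the members not yet described. The summed level was 35.0 to 40.5 RPKM in epiblast and 13.1 to 14.8 RPKM in ExE. Besides the start-site peaks above, edgeR called a peak near Gm27901, between Kcnq1ot1 and Cdkn1c at chr7:143437001-143447500, with 2.56 and 2.59 RPKM in epiblast and 0.490 and 0.712 in ExE (-1.49 beside -0.33). Besides the intergenic peaks at chr13:82335001 and chr6:131856001, the edgeR departures outside these clusters were Fndc1 (-1.58 beside -0.29), 1700021F13Rik (-1.70 beside -0.82) and Fgf3, a growth factor gene with 9.74 and 6.84 RPKM in epiblast and 2.40 and 3.04 in ExE (-1.44 beside -0.41).

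Genes with a promoter that is methylated in the oocyte were read at their start-site peak with the highest level. Whether that peak covers the methylated promoter was not checked. The level of some peaks differed from wild type in both tissues, whereas no departure of the tissue difference was called. Of 19 genes on 17 peaks, 1 was higher and 3 lower in ExE, with a median of -0.07 beside -0.05 in wild type. After quantile normalization 5 were higher and 4 lower, after centring 1 and 2, and by edgeR 2 and 3. Airn had 5.02 and 3.94 RPKM in epiblast and 7.91 and 8.57 in ExE, beside 1.94 to 3.34 and 3.99 to 5.13 RPKM in wild type. All 4 matDKO/CAST values were above those of wild type in the same tissue, by 0.78 in epiblast (adjusted p = 0.014 by limma) and 0.81 in ExE (adjusted p = 0.036), and the tissue differences were 0.82 and 0.79. Plagl1, a growth-regulating zinc finger gene, had 11.8 and 9.05 RPKM against 7.84 and 7.86 and was above wild type by 1.04 in epiblast (adjusted p = 0.00088 by limma) and 0.83 in ExE (adjusted p = 0.024). Peg13, Nap1l5 and Peg10 were above wild type in epiblast (0.79, 0.99 and 0.77). Kcnq1ot1 was not called in either tissue (0.62, adjusted p = 0.071 by limma, and 0.76, adjusted p = 0.081). Snrpn had 18.4 and 13 RPKM against 6.32 and 8.44, a tissue difference of -1.03 beside -0.92. The peak read for Grb10, an adaptor gene that is expressed from the maternal allele in most tissues, went the other way. At chr11:12031501-12039500 it had 2.06 and 2.77 RPKM against 1.26 and 1.29. It was below wild type in epiblast (-1.06, adjusted p = 0.002 by limma) and in ExE (-1.19, adjusted p = 0.0015 by limma).

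Allele-assigned reads were read at the same peaks, as the maternal share of H3K4me3 in ExE. For matDKO/CAST, the authors added reads recovered with a 129 genome to the maternal reads. Over 15462 peaks with at least 20 assigned reads in each of the 6 ExE libraries, the median share was 49.32 to 52.73%. Both matDKO/CAST libraries were above all 4 wild-type libraries at 2297 of these peaks (14.9%) and below them at 749 (4.84%). Kcnq1ot1 had 47.1 and 51.8% in matDKO/CAST ExE beside 1.75 to 3.09% in wild type. Airn had 50.2 and 47.2% beside 4.59 to 8.56%, Peg3 48.5 and 47.5% beside 0.23 to 7.09%, and Snrpn 53.4 and 46.0% beside 1.03 to 2.48%. At these promoters, H3K4me3 was near equal on the 2 parental chromosomes in matDKO/CAST and almost wholly paternal in wild type. The epiblast libraries gave 47.7 and 45.4% at Kcnq1ot1 and 43.4 and 43.8% at Airn. Of the 17 peaks read for genes with oocyte-methylated promoters, 15 had enough reads, and 13 of them were above all wild-type libraries. Whether each peak covers the methylated promoter was not checked. Inpp5f was below and Nnat was neither, and at both the wild-type share was 46.5 to 55.8%, so H3K4me3 of these 2 peaks was not mainly paternal in wild type. Nor was it paternal in both wild-type crosses at Impact, one of the 13, where B6/CAST had 57.5 and 58.4% and CAST/B6 16.8 and 21.7%. Slc38a4 was the lowest of the 13 at 13.8 and 20.6%.

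The genes silenced in cis moved the other way in allele share. Phlda2 had 55.3 and 46.7% maternal reads in matDKO/CAST ExE beside 84.8 to 91.0% in wild type. Igf2r had 47.1 and 61.9% beside 83.0 to 88.0%, and the peak of Tssc4 and Cd81 had 58.5 and 45.9% beside 72.9 to 80.5%. Of the 9 peaks of this list, 4 had enough reads and these 3 were below all wild-type libraries, whereas Pde10a was not. Among the edgeR departures outside the list with enough reads, Gm27901 was below (35.0 and 57.7% beside 82.1 to 89.0%). The further Cd81 peak and Fgf3 were neither below nor above all wild-type libraries. At Ascl2, Slc22a3 and Kcnq1 the matDKO/CAST ExE libraries had fewer than 20 assigned reads, so no share is given, while the wild-type ExE libraries had 80.7 to 96.9%, 76.5 to 86.7% and 76.4 to 88.8%. The noncanonically imprinted genes, whose imprint passes from the oocyte as H3K27me3 and not as DNA methylation, were read in the same way. Of 7 with enough reads, 1 was above all wild-type libraries (Zfp64, 55.6 and 55.3% beside 21.4 to 41.8%), a share near the 14.9% of all allelic peaks. Sfmbt2, a Polycomb gene of this kind, had 14.7 and 10.8% beside 12.2 to 19.6%. Their total H3K4me3 gave 1 of 7 higher in ExE, Platr20, with 2.03 and 2.79 RPKM against 7.15 and 8.19 (1.50 beside 1.69). The count was 4 higher and 1 lower after quantile normalization, and 3 and 1 by edgeR.

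**Figure D5:**
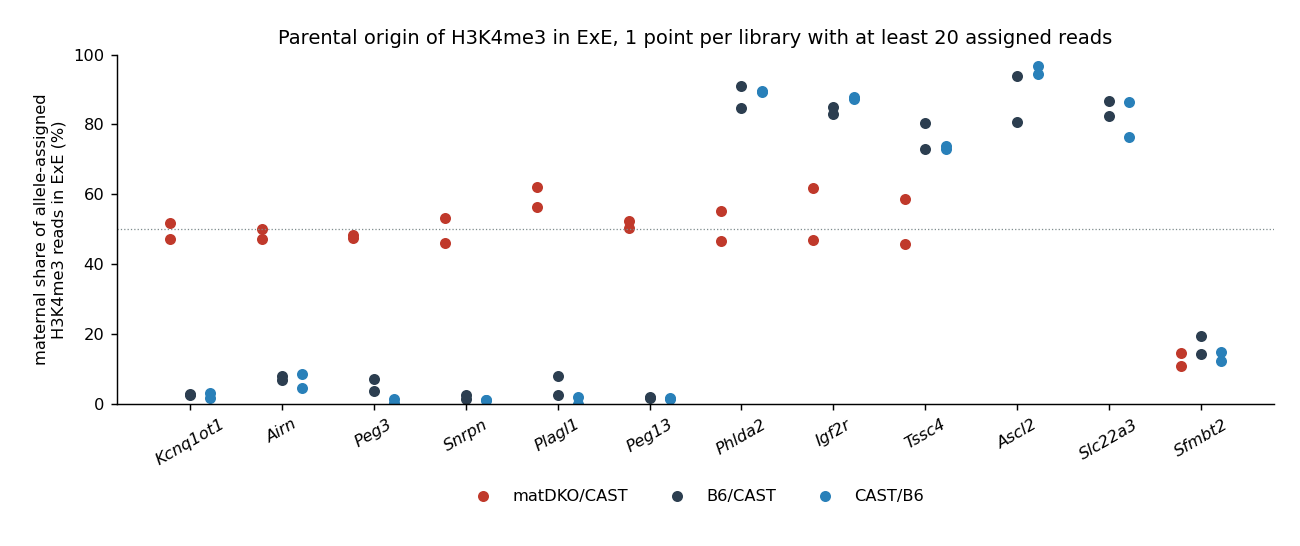
Maternal share of allele-assigned H3K4me3 reads (%) in ExE at 12 start-site peaks, one point per library with at least 20 assigned reads. Kcnq1ot1, Airn, Peg3 and Snrpn lie between 46.0 and 53.4% in matDKO/CAST and at or below 8.56% in wild type, Phlda2 lies at 46.7 and 55.3% beside 84.8 to 91.0%, and Sfmbt2 stays low in all libraries.

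Against wild type within a tissue, matDKO/CAST had 148 H3K4me3 peaks higher (0.325%) and 83 lower (0.182%) in ExE, and 1843 higher (4.04%) and 75 lower (0.164%) in epiblast. The median peak level of the 2 matDKO/CAST epiblast libraries, 0.998 and 1.08 RPKM, was close to the top of or above the range of the wild-type epiblast libraries (0.51 to 1.00), and the part of this level in the 1843 peaks was not tested. Among germline promoters, Asz1 was above wild type in epiblast (1.49, adjusted p = 0.00022 by limma) and in ExE (1.09, adjusted p = 0.019), and Sycp3 in ExE (1.00, adjusted p = 0.008).

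H3K27me3 in matDKO/CAST was higher in ExE at 2245 peaks (9.6%) and lower at 865 (3.7%). Wild type gave 10584 higher (45.2%) and 2031 lower (8.68%), B6/CAST alone 3611 and 1090, and CAST/B6 alone 6020 and 1622. In the same direction as wild type were 90.20% of the higher and 87.75% of the lower calls, and 9 peaks were opposite. The direction of the totals depended on scaling. The median difference in matDKO/CAST was 0.14 as deposited, 0.02 after quantile normalization, 0.00 after centring and -0.01 by edgeR, and the share of calls that were higher fell from 72.2% to 51.9%, 36.8% and 38.4%. Leaving out ExE replicate 2 left 488 calls, and leaving out epiblast replicate 2 left 1519. The tissue differences correlated with wild type at r = 0.788, and at 0.922 among peaks of at least 1 RPKM. Between the 2 wild-type crosses r was 0.827 and 0.9495, and matDKO/CAST gave 0.753 with B6/CAST and 0.754 with CAST/B6 over all peaks.

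The largest H3K27me3 differences were losses in ExE. C2cd2l had 2.81 and 2.41 RPKM in epiblast and 0.195 and 0.412 in ExE (-1.96, adjusted p = 8.5e-05 by limma, beside -1.60 in wild type). Cyp26c1, a retinoic acid hydroxylase gene, had 4.66 and 3.07 RPKM against 0.674 and 0.851 (-1.77 beside -1.96), and Lmna (-1.77), E130018N17Rik (-1.75) and Gpx4 (-1.71) were alike. The epiblast libraries were several times higher than the ExE libraries at each of these. The largest gain with a coding gene was at the start of Kdm2b, chr5:122979001-122989000, with 0.394 and 0.354 RPKM in epiblast and 1.98 and 1.53 in ExE (1.36, SE 0.18, adjusted p = 0.00065 by limma, beside 1.06). The H3K4me3 peak that was higher in ExE lies in the body of the same gene. Plg, whose peak at chr17:12372501-12721500 reaches over the Slc22a3 side of Airn, had 1.39 and 1.42 RPKM against 4.84 and 3.48 (1.28 beside 1.08). Gm42922 gave 1.41 beside 0.32, a call that was lost without ExE replicate 2.

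Called epiblast genes had higher, and called ExE genes lower, H3K27me3 in ExE. Over all H3K27me3 start-site peaks of matDKO/CAST 10.897% were higher and 5.03% lower. Of 13 epiblast genes with an H3K27me3 peak, 4 were higher in ExE, namely Otx2 (0.67), Fgf4 (0.62), Pou5f1 (0.54) and Nodal (0.51), with a median of 0.34 beside 0.35 in wild type and 0.14 over all peaks of matDKO/CAST. Of 16 ExE genes, 5 were lower (median -0.38 beside -0.58), which became 11 lower and 2 higher after quantile normalization, 8 lower after centring and 12 lower by edgeR. Id2, an inhibitor of helix-loop-helix factors, had 1.41 and 1.18 RPKM against 0.176 and 0.194 (-1.39 beside -1.59), and Tead4, a trophectoderm factor, had 2.18 and 1.33 against 0.285 and 0.436 (-1.37 beside -1.65). Both ExE libraries were well below both epiblast libraries at each gene. Bmp4 (-0.79), Cdh3 (-0.66) and Tfap2c (-0.62) were the others, while Cdx2 (-0.30) and Elf5 (0.14) were not called. Of 7 visceral endoderm genes, 3 were lower (Amn -1.13, Gata6 -0.89 and Sox17 -0.75), beside 5 after quantile normalization or centring and 6 by edgeR. Of 10 streak genes, 2 were higher and 1 lower, with T higher (0.68). After quantile normalization 5 were higher and 1 lower, and by edgeR 2 and 2. The median of the streak list was 0.09 as deposited, -0.05 after centring and -0.15 by edgeR. Ectoplacental genes gave 1 of 6 higher, chromatin modifiers 1 higher (Kdm2b) and 1 lower of 7, the latter Tet2, a gene for a methylcytosine dioxygenase, with 1.49 and 0.998 RPKM against 0.188 and 0.364 (-1.16 beside -1.51). Noncanonically imprinted genes gave 1 of 7 higher. They gave 1 higher and 3 lower after quantile normalization or by edgeR, and 0 higher and 2 lower after centring. Genes at oocyte-methylated promoters gave 2 higher and 3 lower on 10 peaks. Germline, decidua and blood, and Hox genes gave 0 by limma on the values as deposited. After quantile normalization limma called 3 germline genes higher and 2 lower, and 1 decidua or blood gene in each direction. After centring it called 2 germline genes lower. In the last 3 lists edgeR called 5 of 12 germline genes, 1 decidua or blood gene and all 4 Hox peaks lower.

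No H3K27me3 departure was called by limma (0 of 23395 peaks), with 1564 (6.69%) at an unadjusted p below 0.05 and 1 higher by edgeR (0.00427%). The same test between B6/CAST and CAST/B6 gave 0 and 849. The edgeR departure was Zdbf2, a paternally expressed imprinted gene, at chr1:63219001-63284000. It had 0.814 and 0.791 RPKM in matDKO/CAST epiblast and 1.46 and 1.00 in ExE, while B6/CAST had 2.84 and 3.52 against 1.95 and 1.90 and CAST/B6 had 4.25 and 4.50 against 3.11 and 2.64. The tissue difference was 0.40 (adjusted p = 0.12 by limma, not called) beside -0.57 in wild type, and the matDKO/CAST libraries were the lowest in both tissues. The departure was 0.96 (SE 0.21, adjusted p = 0.36 by limma, 2.3e-05 by edgeR), with an adjusted p of 0.043 by limma among peaks of at least 1 RPKM, and matDKO/CAST was below wild type in epiblast (-1.70, adjusted p = 5.9e-05) while ExE gave -0.73 (adjusted p = 0.057). In 5 kb tiles, 3 neighbouring tiles of this peak passed (1.40, 1.62 and 1.41). Leaving out epiblast replicate 1 gave 243 departures and leaving out epiblast replicate 2 gave 1. The peaks with the smallest unadjusted p, none of which passed, were Gm43822, Stim1, Tmem267, Mb21d2 and an intergenic peak at chr5:61631001 in the higher direction (adjusted p = 0.306 to 0.36 by limma) and Reg3b, Ivd and 3 intergenic peaks in the lower (adjusted p = 0.306). Within ExE 7 peaks were above wild type (0.0299%) and 16 below (0.0684%), and within epiblast 204 above (0.872%) and 376 below (1.61%).

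H3K27me3 was also read where H3K4me3 departed. The genes silenced in cis shared 4 H3K27me3 peaks, of which 2 were higher in ExE (median 0.60 beside 0.39 in wild type). Over the Phlda2 interval the matDKO/CAST ExE libraries had 4.47 and 3.28 RPKM of H3K27me3 and wild-type ExE 2.10 to 2.85. Over Cdkn1c they had 6.04 and 4.39 beside 2.80 to 3.41, and over Tssc4 and Cd81 3.42 and 2.31 beside 1.28 to 1.75. In these 3 intervals both matDKO/CAST ExE libraries were above all 4 wild-type ones. In epiblast the same held over Cdkn1c (6.31 and 5.30 beside 4.14 to 5.25 RPKM) and over Tssc4 and Cd81 (0.755 and 1.14 beside 0.352 to 0.562), whereas over Phlda2 the ranges overlapped (4.60 and 3.69 beside 3.50 to 4.65). Over Ascl2 (5.87 and 3.86 beside 3.92 to 5.54) and Slc22a3 (6.25 and 4.15 beside 3.67 to 6.06) the ranges overlapped. The peak that holds Phlda2 and Cdkn1c, at chr7:143297501-143510000, gave a tissue difference of 0.37 in matDKO/CAST and 0.09 in wild type, and its departure of 0.28 was not called. In allele-assigned reads of that peak the maternal share was 51.2 and 51.4% in matDKO/CAST ExE, beside 13.2 to 18.5% in wild-type ExE, and 51.3 and 47.6% beside 14.4 to 19.5% in epiblast. The peak on the other side of Kcnq1ot1 had 49.9 and 49.5% beside 22.0 to 23.6% in ExE, and the peak on the Slc22a3 side of Airn 51.5 and 51.6% beside 10.2 to 13.5%. H3K27me3 over these domains was thus mostly paternal in wild type and near equal on the 2 parental chromosomes in matDKO/CAST. Around Kcnq1ot1 the 7 H3K27me3 start-site peaks had a median departure of 0.16 with 0 called.

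H3K36me3 in matDKO/CAST was higher in ExE at 2463 peaks (10.2%) and lower at 1225 (5.06%). Wild type gave 5541 higher (22.9%) and 6801 lower (28.1%), B6/CAST alone 5550 and 4515, and CAST/B6 alone 517 and 1065. In the same direction as wild type were 86.93% of the higher and 74.94% of the lower calls, and 24 peaks were opposite. The share of calls that were higher was 66.8% as deposited, 58.1% after quantile normalization, 79.1% after centring and 59.9% by edgeR. These calls rested on the spread of all 12 libraries, since 0 peaks were called from the 4 matDKO/CAST libraries alone, and leaving out epiblast replicate 2 left 151. Leaving out ExE replicate 2 or ExE replicate 3 left 1325 or 1574, and quantile normalization left 609. The tissue differences correlated with wild type at r = 0.651 over all peaks, 0.794 at peaks over start sites and 0.407 at intergenic peaks. With B6/CAST alone r was 0.628 and with CAST/B6 alone 0.511, and the 2 wild-type crosses gave 0.573 with each other. Peaks over start sites, which are long and mostly cover the gene, were higher in ExE at 24.4%.

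H3K36me3 was higher in ExE at many genes of the extraembryonic lineages. Of 18 ExE genes, 9 were higher and 0 lower (median 0.46 beside 0.62 in wild type and 0.01 over all peaks of matDKO/CAST). Over all H3K36me3 start-site peaks the median was 0.24 with 24.4% higher, and 29.3% of peaks over 20 kb were higher. Wnt7b had 0.274 and 0.509 RPKM in epiblast and 0.849 and 1.36 in ExE (0.84 beside 0.84), Tfap2c 0.359 and 0.431 against 0.818 and 1.36 (0.81 beside 0.71), and Elf5 0.557 and 0.848 against 1.19 and 1.44 (0.60). Plet1 (0.60) and Ets2 (0.53) were also called, and the ExE libraries were above the epiblast libraries at each gene with its values given. Of 14 visceral endoderm genes, 9 were higher and 0 lower (median 0.55 in both), with Cubn, the cubilin receptor gene, at 0.583 and 0.812 RPKM against 1.77 and 1.53 (0.85 beside 1.24). Dab2 (0.67) and Gata4 (0.60) were among the others, so these markers of another cell type moved with the ExE genes, and their part in the result was not tested. Noncanonically imprinted genes gave 5 of 7 higher (median 0.49 beside 0.38), with Sfmbt2 at 0.55 and 0.571 RPKM against 1.17 and 1.36 (0.73, adjusted p = 0.0093 by limma). Chromatin modifiers gave 7 of 16 higher and 0 lower, and oocyte-methylated promoters 8 higher and 1 lower. After quantile normalization the numbers called higher were 5 for the ExE genes, 4 for visceral endoderm, 2 for noncanonically imprinted genes, 0 for chromatin modifiers and 3 for oocyte-methylated promoters. Of 13 epiblast genes, 3 were lower, among them Fgf5, a marker of the primed epiblast, with 1.32 and 1.50 RPKM against 0.382 and 0.761 (-0.86 beside -1.04), and Otx2 (-0.78 beside -0.89), and 1 was higher (L1td1, 0.38). Of the peaks with the largest differences, Tbx3, a T-box factor gene, had 0.192 and 0.713 RPKM against 1.84 and 2.12 (1.44 beside 1.13), Irx3 gave 1.44 beside 0.72 and Sox17 1.27 beside 0.47. Gm38839 (1.54 beside 0.18) and Zfp747 (1.42 beside 0.51) were the other 2 higher ones. The 5 lower ones were Ugt8a (-2.07), Zfp385b (-1.74), Gabrg3 (-1.67), Cdh10 (-1.59) and AC060761.1 (-1.55), where 4 of the peaks were 0.5 kb long.

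No H3K36me3 departure was called by limma (0 of 24202 peaks), with 2383 (9.85%) at an unadjusted p below 0.05. By edgeR 1 was higher (0.00413%), at Gnas, and 5 lower (0.0207%), at Apob, Pdia5, Lrp2, Zfp936 and a peak shared by Rsu1 and Cubn. Between B6/CAST and CAST/B6 the same test called 791 peaks (3.27%), so for this mark more peaks separated the wild-type crosses from each other than separated matDKO/CAST from their mean. Gnas, an imprinted G protein gene, at chr2:174263001-174348000 had 1.02 and 1.10 RPKM in matDKO/CAST epiblast and 1.24 and 1.51 in ExE, beside 1.54 to 2.68 and 1.43 to 1.84 RPKM in wild type, a departure of 0.59. Apob, an apolipoprotein gene of the visceral endoderm, gave 1.03 in matDKO/CAST, 1.87 in B6/CAST and 1.26 in CAST/B6. The peak of Rsu1 and Cubn gave 0.85 beside 1.52 and 0.96, Zfp936 0.71 beside 1.36 and 0.98, and Gnas 0.26 beside 0.03 and -0.68. At Apob and at each of these, matDKO/CAST lay outside the range of the 2 wild-type crosses. The values of Pdia5 and Lrp2 by cross are not given here. Without epiblast replicate 3 there were 89 departures. The peaks with the smallest unadjusted p, none of which passed (adjusted p = 0.322 by limma), were Tpbg, Fap, Tmcc1 and 2 intergenic peaks in the higher direction and Gabrg3, Sh2d4b, Gm38825 and 2 intergenic peaks in the lower. Within ExE 3 peaks were below wild type (0.0124%) and 0 above, and within epiblast 9 were above (0.0372%) and 38 below (0.157%).

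In the 2 silencing-RNA clusters H3K36me3 was read over the H3K4me3 intervals as a description. Over the Airn interval the matDKO/CAST ExE libraries had 0.661 and 0.831 RPKM, beside 2.07 to 3.50 in wild-type ExE, and epiblast had 0.532 and 0.733 beside 0.936 to 1.65. All 4 matDKO/CAST libraries were thus the lowest of their tissue at an interval where H3K4me3 was the highest. The H3K36me3 peak of Cd81 at chr7:143062001-143069500 had 1.02 and 0.757 RPKM in matDKO/CAST epiblast and 0.483 and 0.327 in ExE (-0.61, adjusted p = 0.023 by limma, beside 0.09 in wild type), with a departure of -0.71 that was not called (adjusted p = 0.335). The peak over Kcnq1ot1 and Kcnq1 at chr7:143237501-143298000 had 1.37 and 1.38 RPKM against 2.10 and 2.41 (0.55, adjusted p = 0.012 by limma, beside 0.26). Its maternal share in ExE was 55.5 and 53.5% beside 9.57 to 22.4% in wild type.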

How the data were processed

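H3K4me3, H3K27me3 and H3K36me3 ChIP libraries were compared over 18 groups of 2 libraries. The authors trimmed reads with Trim Galore, aligned them with Bowtie2 to GRCm38 with strain variants masked, and deposited RPKM values in 1 kb windows from all reads. The authors also deposited counts of maternal and paternal reads per peak (SNPsplit), with reads recovered from a 129 genome added to the maternal counts of matDKO/CAST. Peaks were called by the authors with chromstaR (a hidden Markov model) in the wild-type crosses only, per cross and tissue.

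Peak lists were merged (bedtools 2.31.1) over the 19 autosomes, and the RPKM of windows covered by at least 500 bp was averaged. Values were taken as log2 after adding 0.5 RPKM, and limma 3.58.1 (R 4.3.3) with an intensity trend estimated 1 mean for each cross and tissue from the 12 libraries of a mark. edgeR 4.0.16 (quasi-likelihood) was run on reads recovered from the RPKM steps, where 100% of low values (windows of up to 20 reads) lay within 0.1 of a whole read. Other alternatives changed the pseudocount, filter, scaling, features (5 kb tiles), wild-type cross and libraries. Scripts were tested on simulated data.

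Genes came from GENCODE release M21 and promoters from RefSeq (5 of 5 matched). Named were the 5 called peaks per mark and direction with the largest difference, non-overlapping libraries and a gene within 5 kb, the departures (where none passed, the 5 per direction with the smallest unadjusted p), and members of 11 gene lists and the Hox genes, read at the start-site peak (within 1000 bp) with the highest level or, for H3K36me3, at the peak covering most of the gene. Other genes, called by edgeR only or near Kcnq1ot1 and Airn, were chosen after their values were seen. The members, lists and tests were chosen with earlier results of these data known. The 15 inputs served only for a filter, and the X chromosome was not analysed here. A few peaks that meet the naming rule are not reported here.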

Additional observations from a re-analysis of the deposited data

Results flagged for a closer look

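A total of 7 H3K4me3 peaks were flagged because the tissue difference of matDKO/CAST differed from that of wild type by the test of the difference itself (limma, adjusted p below 0.05). On the log2 scale the departures were -2.23 at chr13:82335001, -2.08 at chr13:76345001 and -1.91 at chr6:131856001, all intergenic, -1.69 at Gm9111, -1.49 at Ascl2, -1.46 at Slc22a3 and -1.41 at Phlda2. At Ascl2, Slc22a3, Phlda2 and chr13:76345001 matDKO/CAST was below wild type within ExE by limma, and at the other 3 above wild type within epiblast. At chr13:76345001 both matDKO/CAST epiblast libraries were also above those of wild type, and at chr13:82335001 both ExE libraries were also below them.

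The tissue difference of H3K36me3 differed between B6/CAST and CAST/B6 at 791 peaks, 744 of them more positive in B6/CAST, whereas H3K4me3 and H3K27me3 gave 0 by limma (1384 and 849 at an unadjusted p below 0.05, and edgeR was not run on this contrast). The 791 are for the values as deposited only. H3K36me3 signal inside the peaks was 57.4 and 53.4% in B6/CAST ExE and 44.1 and 45.7% in CAST/B6 ExE. In epiblast it was 40.8 and 34.1%, and 44.0 and 43.2%. The part of these shares in the 791 peaks was not tested.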

How the results depend on the processing

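The input filter (4 RPKM) removed 0 peaks and so changed nothing. No difference or departure of a named peak reversed in any setting. Of the named tissue differences, all 120 values for H3K4me3 kept their call, as did 117 of 118 for H3K27me3 and 95 of 121 for H3K36me3, and of the H3K4me3 departures 81 of 145 did. For the called tissue differences, a mean of at least 1 RPKM gave 5076 for H3K4me3 (12932 in all), 985 for H3K27me3 (3110) and 2331 for H3K36me3 (3688), with fewer peaks tested. An adjusted p below 0.01 gave 7223, 775 and 32, tiles of 5 kb 20548 for H3K27me3 and 12690 for H3K36me3, the matDKO/CAST libraries alone 2035 and 0, and quantile normalization 609 for H3K36me3. Leaving out 1 matDKO/CAST library gave 7873 to 12029, 488 to 3797 and 151 to 4224 calls, lowest without ExE replicate 2, ExE replicate 2 and Epi replicate 2.

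H3K4me3 departures (7) numbered 4 at a pseudocount of 0.1, 17 at 1 RPKM or more, 14 by edgeR, 12 in tiles, 1 against B6/CAST alone, 0 against CAST/B6 alone and 1 at 0.01. Leaving out 1 library gave 1 to 54, of which matDKO/CAST Epi replicates 1 and 2 and ExE replicate 2 gave 42, 3 and 16, B6/CAST Epi replicates 1 and 2 and ExE replicate 1 gave 3, 4 and 1, and CAST/B6 Epi replicates 2 and 3 gave 17 and 54. The wild-type leave-outs were added after seeing the data. H3K27me3 departures (0) numbered 7 at 1 RPKM or more, 1 by edgeR and 13 in tiles, and H3K36me3 departures (0) 6 by edgeR. Leaving out 1 library gave 0 to 243 and 0 to 89, highest without Epi replicate 1 and Epi replicate 3. The cause of these changes was not tested.

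The correlation with wild type across H3K27me3 peaks (0.7881) was 0.7581 and 0.8003 at pseudocounts of 0.1 and 1, 0.9222 at 1 RPKM or more and 0.7807 after quantile normalization, and for H3K36me3 (0.6514) it was 0.5224 after quantile normalization. The tissues share both replicate numbers in matDKO/CAST for H3K36me3 only. Same-numbered H3K36me3 libraries did not deviate together (r of 0.0013, 0.0011 and 0.0571 in the 3 crosses), so the numbers do not pair them, and the fit with the replicate block gave 3965 tissue calls and 0 departures. For H3K4me3 matDKO/CAST gave an r of 0.0749, beside 0.3451 (B6/CAST) and 0.2699 (CAST/B6). The H3K27me3 libraries gave -0.0083 beside 0.1081 and 0.0596 in the same order. The matDKO/CAST tissues share only 1 replicate number for these marks. No block was fitted for them, and a partial block was not tried. The shallowest matDKO/CAST library, with 2.09 M reads, was one of H3K36me3.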

Other observations

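H3K4me3 and H3K27me3 were both measured at 8433 peaks over coding start sites. In matDKO/CAST, H3K27me3 was higher in ExE at 254 of the 2059 peaks with lower H3K4me3 (12.3%), close to the 11.7% over all 8433. It was lower at 34 of the 184 peaks with higher H3K4me3 (18.5%), beside 6.29% over all, and 53 peaks were lower and 10 higher in both marks. The tissue differences of the 2 marks correlated across these peaks at r = -0.11 in matDKO/CAST and -0.10 in wild type.

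Besides Phlda2 and 2 of the intergenic departures, the H3K4me3 peaks called in opposite directions lay at Slc2a13, Mrgprh, St6gal2, Gm13990, Vmn1r18 and Tspan32os, with 3 further intergenic peaks. The peak near Tspan32os, at chr7:142986001-142987500 in the Kcnq1ot1 cluster, had 0.831 and 0.624 RPKM in matDKO/CAST epiblast and 0.076 and 0.119 RPKM in ExE, whereas wild-type ExE had 0.379 to 1.06 RPKM. Outside the peaks, 5 kb tiles gave 0 H3K4me3, 158 H3K27me3 and 16 H3K36me3 tissue calls in matDKO/CAST by limma, and 0 departures for each mark (5072, 23672 and 27697 at an unadjusted p below 0.05; edgeR was not run on them). Of the 158 H3K27me3 tiles, 152 had the sign of wild type.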
